A study of Mus musculus with 8 samples.

Results

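The comparison of both drugs with vehicle took 4 of the 8 libraries of the series: AG120_AZA replicates 1 and 2 against vehicle replicates 1 and 2, chosen by their treatment labels. It covered all 12294 genes of the deposited expression table. The cells were mouse leukemic progenitors that the labels name I1DN, grown in transplanted mice and sorted per mouse for cKit on the surface and against CD11b. Mice had received vehicle, AG120, AZA or AG120 with AZA for 5 days, with 2 libraries in each of the 4 groups, and the labels give the same leukemia and the same sort for all groups. The series title places the cells in acute myeloid leukemia with mutant IDH1, and its design text asks what the drugs together do to gene expression and DNA methylation, of which the methylation data were not analysed here. The alleles that make up I1DN, the drug doses, the strain and age of the mice and the number of mice behind each library are not given in the sources used here, and the p-values below measure the spread between libraries, which may be technical. RNA was read from the 3′ end of polyadenylated transcripts (QuantSeq).

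AG120 (ivosidenib) blocks mutant IDH1, an enzyme that turns 2-oxoglutarate into 2-hydroxyglutarate, a compound that inhibits the TET enzymes and other dioxygenases that remove methyl groups. AZA (azacitidine) is a cytidine analogue that is built into nucleic acids and traps DNA methyltransferases. In normal bone marrow, cells positive for Kit give rise to granulocytes and monocytes under the transcription factors PU.1 (Spi1) and IRF8, and to red cells, megakaryocytes, mast cells and basophils under GATA factors. KLF1 acts beside GATA1 in the red cell branch, where cells build their membrane skeleton and take up iron for heme before hemoglobin accumulates.

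Under both drugs, 13 of 33 erythroid, 7 of 15 heme synthesis and 4 of 17 mast cell and basophil genes rose over vehicle and none fell. Of stem and progenitor genes 6 of 19 fell and none rose, and of monocyte genes 5 of 18 fell and 1 rose. Most members of each of these 5 lists did not pass the test. The lists were chosen with earlier results of these data known, so counts beside the share of all genes are not independent support. Of 12294 genes, 201 (1.63%) were called higher and 170 (1.38%) lower by limma, at an adjusted p below 0.05 in a fit of 4 group means over all 8 libraries. Both directions together made up 3.02%. An unadjusted p below 0.05 was reached by 2631 genes (21.4%). All 371 called genes had both AG120_AZA libraries on one side of both vehicle libraries, a separation that 27.2% of all genes showed in the higher and 23.9% in the lower direction. The median difference between the groups over all genes was 0.02 on the log2 CPM scale, on which a difference of 1 is a 2-fold change in CPM. CPM is in general the reads of a gene scaled to a fixed library total. The deposited values also share one distribution across libraries, and folds and summed CPM are on that scale. Called genes had a median difference of 2.49 in the higher and a median size of 1.90 in the lower direction.

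**Figure D1:**
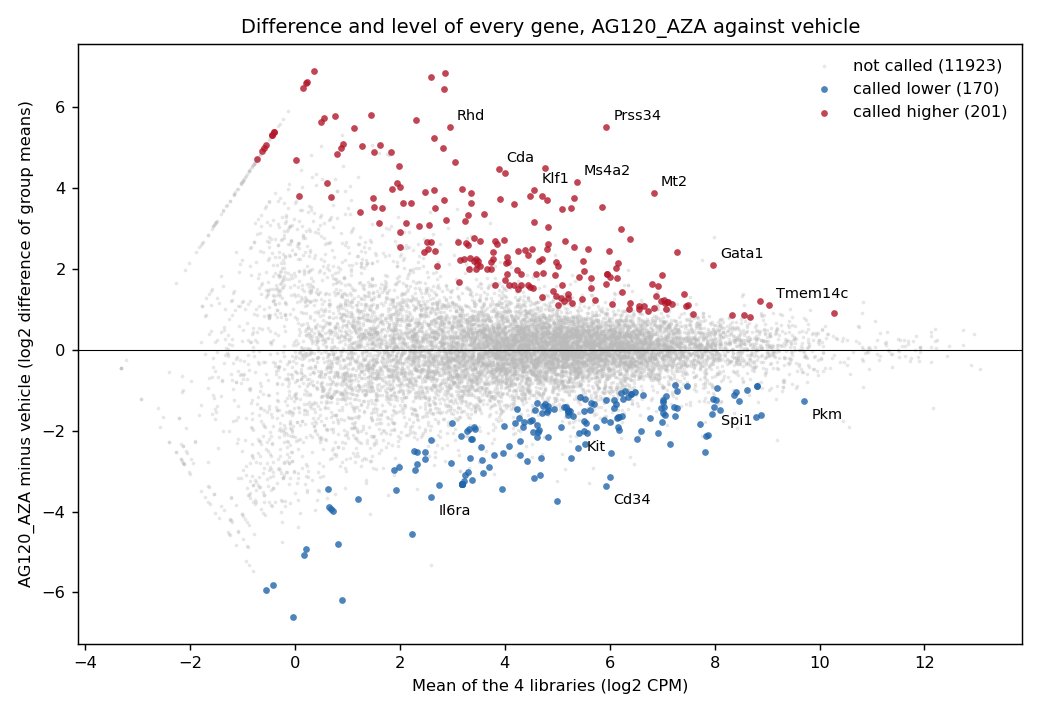
Each point is 1 of 12294 genes, with its mean over the 2 vehicle and 2 AG120_AZA libraries in log2 CPM on the x axis and the log2 difference of the group means on the y axis. The 201 genes called higher (red) and the 170 called lower (blue) include Prss34 and Mt2 well above 0, and Cd34 well below 0.

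The deposited libraries share one distribution of values, so their depth is unknown, and from 100 to 376 genes in each library sat at its lowest value. AG120_AZA replicate 2 lay farthest out on the first principal component of all 8 libraries (35.7% of the variance), at 88.0, against 52.6 for AG120_AZA replicate 1 and between -59.7 and 33.3 for the other 6. Without that library, 18 genes were called higher and 19 lower. Without AG120_AZA replicate 1 the counts were 190 and 537, without vehicle replicate 1 they were 133 and 101, and without vehicle replicate 2 they were 152 and 90. With no mean-variance trend in the variance model, 32 were called higher and 11 lower. Of the 94 called genes named here or in the closing section, 21 kept the call without AG120_AZA replicate 2, 10 without the trend and 63 with only the libraries compared. Itgam, the gene of CD11b that the sort selected against, stood at 2.10 and 4.34 log2 CPM in the vehicle and 3.28 and 2.85 in the AG120_AZA libraries. In the sorted cells, 26 neutrophil maturation genes summed to 3421 CPM in vehicle replicate 1 and 15935 in vehicle replicate 2, and to 3795 and 1359 in the AG120_AZA libraries. Vehicle replicate 1 lay within the range of the AG120_AZA libraries. The part of granulocyte content in the differences below was not tested. Markers of T, NK and B cells (6 measured of 23 listed) summed to between 29.1 and 33.7 CPM over the 4 libraries compared. For stroma and endothelium, 4 of 15 listed markers were measured and summed to between 138 and 227 CPM. None was called against vehicle. Log2 differences of the T, NK and B cell markers ran from -0.95 to 4.34. In each of the lists 1 marker had an unadjusted limma p below 0.05, beside 21.4% of all genes. The markers Cd3e and Col1a1 were not analysed here.

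**Figure D2:**
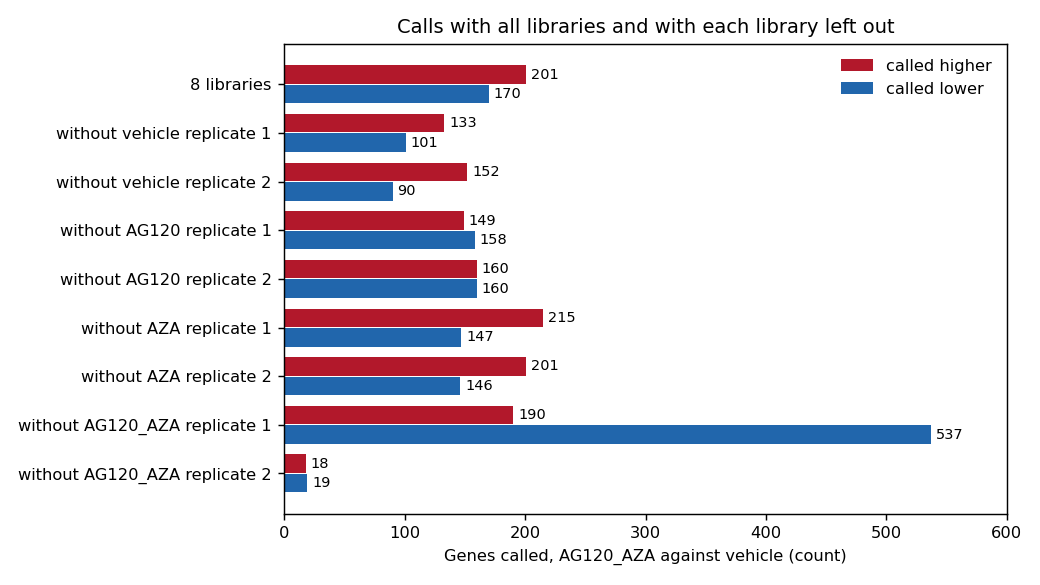
Bars give the number of genes called higher (red) and lower (blue) in AG120_AZA against vehicle, with all 8 libraries and with each library left out. The counts stand at 201 and 170 with all libraries and at 18 and 19 without AG120_AZA replicate 2.

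The 13 of 33 erythroid genes that rose stood against 1.63% of all genes called higher. This list was chosen with earlier results of these data known. The list's median difference was 1.90, and 29 of the 33 had positive differences. Klf1 (chr8:84901928-84905291 in mm10), the erythroid Kruppel-like transcription factor, stood at 2.70 and 2.47 log2 CPM in the vehicle libraries and at 6.28 and 6.82 in the AG120_AZA libraries. That is a rise of 3.97 ± 0.36 (SE), or 15.6-fold (adjusted p = 0.000603). Gata1, the factor that directs red cell and megakaryocyte development, was already well expressed in vehicle at 7.40 and 6.42 and reached 8.79 and 9.25, a rise of 2.11 ± 0.35 (adjusted p = 0.0104). Gfi1b, a repressor that works with GATA1, went from 2.32 and 2.47 to 4.65 and 4.53 (2.20 ± 0.39, adjusted p = 0.0148). For all 3 factors the lower AG120_AZA library lay above the higher vehicle library, as for every gene called higher. Tal1 and Zfpm1, which encode partners of GATA1, had differences of 0.90 ± 0.33 and 0.85 ± 0.34 that did not pass. The call of Klf1 held with each of the 8 libraries left out. Calls were lost for Gfi1b without vehicle replicate 1 (adjusted p = 0.0508), Gata1 without vehicle replicate 2 (adjusted p = 0.0532) and Gata1 and Gfi1b without AG120_AZA replicate 2 (adjusted p from 0.108 to 0.115). In bulk RNA, a change in the share of cells of one type and a change in RNA per cell cannot be told apart.

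Among red cell membrane genes, 8 of 18 rose. Rhd (chr4:134864536-134896172), which encodes the Rh blood group protein, was close to absent under vehicle, at -0.34 and 0.72, and stood at 5.54 and 5.88 under both drugs, a rise of 5.52 ± 0.61 (adjusted p = 0.00198). Its partner Rhag, the Rh-associated glycoprotein, rose from 2.91 and 2.43 to 5.11 and 4.23 (1.99 ± 0.40, adjusted p = 0.0245). The water channel gene Aqp1 rose by 3.50 ± 0.39 (adjusted p = 0.00198), and Icam4, the Landsteiner-Wiener blood group gene, by 2.49 ± 0.32 (adjusted p = 0.00384). Add2, encoding the adducin that caps actin in the membrane skeleton, stood at 1.10 and 1.27 in vehicle and 4.95 and 5.39 under both drugs (3.98 ± 0.63, adjusted p = 0.00783). Epor, the erythropoietin receptor gene, had its AG120_AZA libraries further apart, at 6.24 and 5.11 against 4.13 and 3.44 in vehicle (1.90 ± 0.44, adjusted p = 0.0455). Ank1 (ankyrin) and Ermap passed the test too, at 5.77 and 6.16 and 4.62 and 5.69 under both drugs, but vehicle replicate 1 was at the lowest value of its library for both, so no fold is given. The anion exchanger gene Slc4a1, which later red cells express, had a difference of -0.36 ± 1.22 and did not pass (adjusted p = 0.891). The calls of Rhd and Aqp1 held with each of the 8 libraries left out. Single omissions ended the calls of Epor and Ermap without vehicle replicate 1 (adjusted p from 0.0702 to 0.165), Rhag and Epor without vehicle replicate 2 (adjusted p from 0.0967 to 0.173) and Ermap without either AG120 library (adjusted p from 0.0597 to 0.0621). Further losses were Epor without either AZA library (adjusted p from 0.0662 to 0.0687), Rhag, Epor and Ermap without AG120_AZA replicate 1 (adjusted p from 0.0637 to 0.137) and all others called here without AG120_AZA replicate 2 (adjusted p from 0.0508 to 0.302). The count for the whole erythroid list was 4 without AG120_AZA replicate 2, 3 without the mean-variance trend and 5 among genes with a mean of at least 5 log2 CPM.

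Of 15 heme synthesis genes, 7 rose and none fell (median 0.99). Alad, the second enzyme of the pathway, stood at 4.97 and 4.54 in vehicle and 6.92 and 7.50 under both drugs, a rise of 2.45 ± 0.31 (adjusted p = 0.00384). Cpox and Fech, enzymes of later steps up to the insertion of iron, rose by 2.19 ± 0.34 and 2.17 ± 0.33 (adjusted p = 0.00747 and 0.00685). All 3 of these enzymes had both AG120_AZA libraries above both vehicle libraries, as had every gene called higher. The mitochondrial transport genes Abcb6, Abcb10 and Tmem14c rose by 2.70 ± 0.45, 1.47 ± 0.27 and 1.11 ± 0.20 (adjusted p = 0.0108, 0.0188 and 0.0165). Tmem14c, a carrier of porphyrinogen, was among the 10 most abundant called genes, at 8.38 and 8.57 against 9.40 and 9.77. The genes of the first step did not pass. Alas2, the erythroid form of its enzyme, lay at 2.70 and 1.41 in vehicle and 1.31 and 2.81 under both drugs (0.01 ± 0.73, adjusted p = 0.996), and Alas1, the form used outside red cells, had a difference of -1.99 ± 0.65 (adjusted p = 0.117). The threshold was missed by Tmem14c without vehicle replicate 1 (adjusted p = 0.0830), Abcb10 without vehicle replicate 2 (adjusted p = 0.0822) and all genes called here without AG120_AZA replicate 2 (adjusted p from 0.0508 to 0.153). Alas1 passed without AG120_AZA replicate 1 (adjusted p = 0.0413). The number of heme synthesis members called was 0 without AG120_AZA replicate 2, 0 without the mean-variance trend and 3 among genes with a mean of at least 5.

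Of 10 iron handling genes 4 rose and none fell (median 0.59). They were Steap3, the endosomal iron reductase gene (3.54 ± 0.52, adjusted p = 0.00589), the iron importer gene Slc11a2 (2.49 ± 0.41, adjusted p = 0.00974), the exporter ferroportin, Slc40a1 (3.95 ± 0.56, adjusted p = 0.00478), and Tfr2, a sensor of transferrin (1.88 ± 0.38, adjusted p = 0.0282). Steap3 showed the step by library, at 3.35 and 4.83 in vehicle and 7.61 and 7.65 under both drugs. Both ferritin genes were abundant and did not pass, with differences of 0.37 ± 0.23 for Fth1 and -0.75 ± 0.21 for Ftl1. With 1 library fewer, the test was not passed by Tfr2 without either vehicle library (adjusted p from 0.0726 to 0.104) and all genes called here without AG120_AZA replicate 2 (adjusted p from 0.0669 to 0.240). The count of iron handling members was 0 without AG120_AZA replicate 2, 0 without the mean-variance trend and 1 among genes with a mean of at least 5.

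Globin genes, the end product of the red cell program, did not pass. Hbb-bs had levels of 10.62 and 10.10 in the vehicle libraries, 9.64 and 7.39 in the AG120 libraries, 10.40 and 11.63 in the AZA libraries and 11.33 and 11.20 in the AG120_AZA libraries (difference from vehicle 0.90 ± 0.58, adjusted p = 0.405). Hba-a2 lay at 8.43 and 7.67 in vehicle and 8.78 and 8.44 under both drugs (0.55 ± 0.64, adjusted p = 0.659). Globin transcripts were abundant in vehicle already, where Klf1 and Rhd were low, and the AG120 libraries held the least. All 5 measured globin genes had positive differences (median 0.55).

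**Figure D3:**
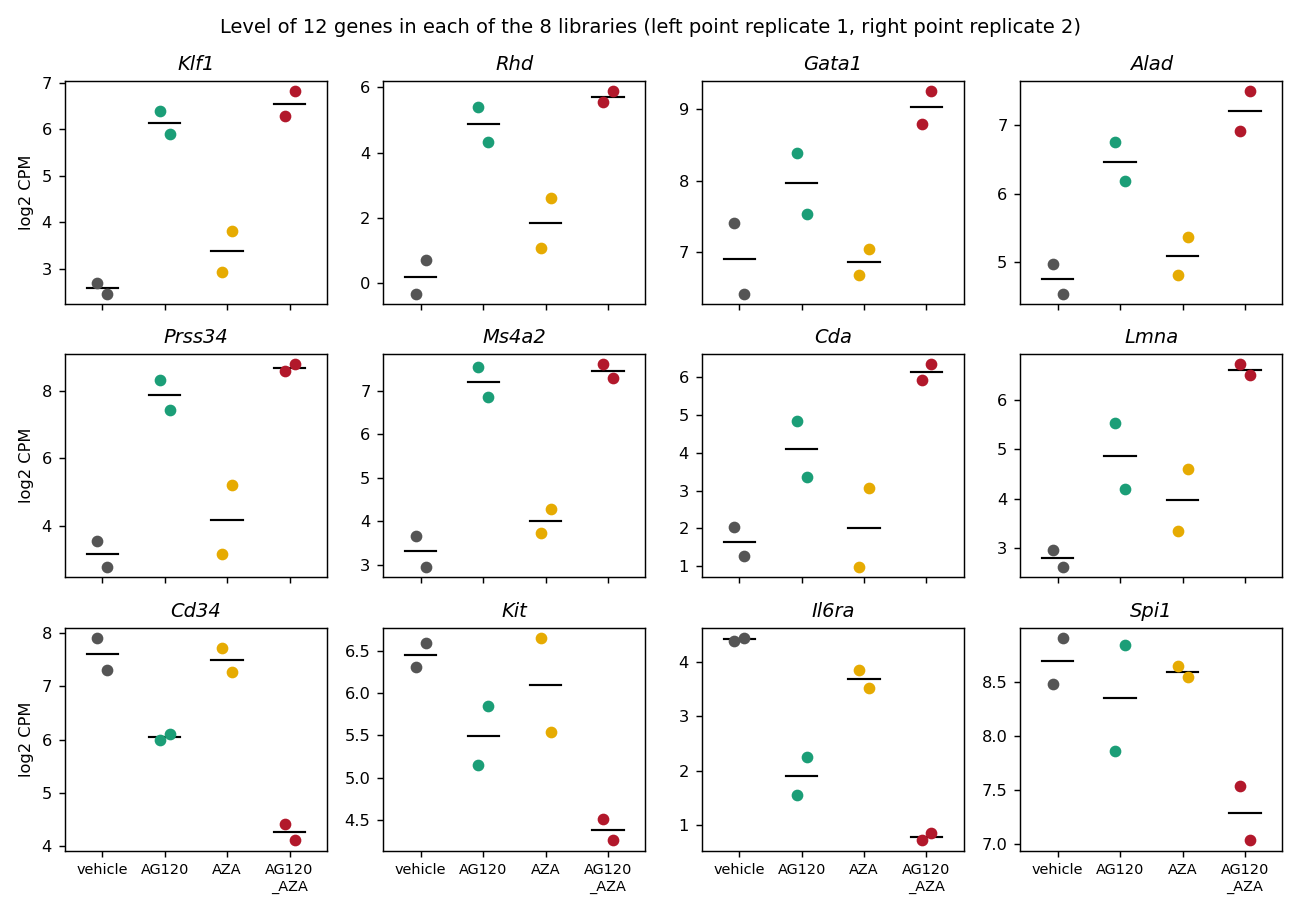
Points are the 8 libraries and bars the group means in log2 CPM for 12 genes, with the y axis scaled per gene and not from 0. In AG120_AZA, Klf1, Rhd, Gata1, Alad, Prss34, Ms4a2, Cda and Lmna lie above vehicle and Cd34, Kit, Il6ra and Spi1 below it in both libraries.

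Of 17 mast cell and basophil genes, 4 rose and none fell (median 1.32), and 5 had negative differences. The 4 were 2 of 3 granule protease genes and 2 of 6 receptor genes, with none of 8 regulators and mediators called. Prss34 (chr17:25298394-25300165), a basophil granule protease gene, stood at 3.57 and 2.78 in vehicle and 8.60 and 8.79 under both drugs, which is 46.0-fold (log2 difference 5.52 ± 0.55, adjusted p = 0.00111). Mcpt8, a protease used as a basophil marker, went from 2.49 and 2.68 to 6.61 and 6.17 (3.80 ± 0.33, adjusted p = 0.000470). Among receptor genes, Ms4a2, the beta chain of the high-affinity IgE receptor, went from 3.66 and 2.94 to 7.61 and 7.29 (4.15 ± 0.34, adjusted p = 0.000470). The 2 libraries of each group lay close together for these genes. Il1rl1, the interleukin 33 receptor gene, differed more between its AG120_AZA libraries (5.84 and 3.83 against 1.49 and 1.80 in vehicle) and passed as well (3.19 ± 0.60, adjusted p = 0.0197). Other members were abundant in both groups and did not pass: Cpa3, a mast cell carboxypeptidase gene, stood at 10.02 and 8.65 in vehicle and 10.54 and 10.09 under both drugs, and Gata2, which directs mast cell and progenitor development, at 8.03 and 7.18 and 8.29 and 6.36. The calls of Prss34, Mcpt8 and Ms4a2 held with each of the 8 libraries left out. Calls that turned on 1 library were those of Il1rl1 without either vehicle library or AG120_AZA replicate 1 (adjusted p from 0.0524 to 0.0781). Cpa3 passed without vehicle replicate 1 (adjusted p = 0.0400). Without vehicle replicate 1 the count of called members was 7, without the trend 2, and among genes with a mean of at least 5 it was 2.

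Of 11 measured eosinophil genes 2 rose and none fell (median 2.80). They were Alox15, a lipoxygenase gene (-2.74 and -1.49 in vehicle and 3.49 and 3.85 under both drugs, 5.78 ± 0.76, adjusted p = 0.00393), and Epx, eosinophil peroxidase (0.56 and 3.28 and 5.80 and 4.76, 3.36 ± 0.78, adjusted p = 0.0447). Vehicle replicate 1 was at its library's lowest value for Alox15, so its size is not a measured fold. Prg2, the major basic protein gene, stood at 4.78 and 8.42 in the vehicle and 10.05 and 8.74 in the AG120_AZA libraries, and its difference of 2.80 ± 0.88 did not pass (adjusted p = 0.105). The list's median difference from vehicle was 3.70 under AG120 alone and 1.79 under AZA alone. Its median for both drugs against AG120 was -0.76. The count of 2 became 1 without vehicle replicate 1, AG120_AZA replicate 1 or either AZA library, 4 without vehicle replicate 2 and 0 without AG120_AZA replicate 2. It was 0 with vooma weights or a mean of at least 3, and 1 without the trend or with only the libraries compared. Calls were lost for Epx without vehicle replicate 1, either AZA library or AG120_AZA replicate 1 (adjusted p from 0.0625 to 0.160) and Alox15 and Epx without AG120_AZA replicate 2 (adjusted p from 0.0634 to 0.149). Prg2 passed without vehicle replicate 2 (adjusted p = 0.00414).

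The promoters of Prss34, Rhd, Icam4 and Ms4a2 are shown because these genes were among the red cell and basophil genes that rose and because each held, close to its start, the GATA letters AGATAA (or TTATCT on the other strand). The windows run from 250 bases before to 50 bases after the annotated start, from RefSeq on GRCm38.p6, and capitals mark the GATA matches only. The genes were chosen after the motif search.
Prss34, chr17:25298144-25298443, plus strand: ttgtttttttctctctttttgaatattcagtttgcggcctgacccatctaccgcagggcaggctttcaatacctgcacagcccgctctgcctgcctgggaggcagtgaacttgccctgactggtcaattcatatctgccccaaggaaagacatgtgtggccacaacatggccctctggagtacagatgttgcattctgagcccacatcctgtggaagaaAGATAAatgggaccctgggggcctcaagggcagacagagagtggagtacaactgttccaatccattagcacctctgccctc
Rhd, chr4:134864286-134864585, plus strand: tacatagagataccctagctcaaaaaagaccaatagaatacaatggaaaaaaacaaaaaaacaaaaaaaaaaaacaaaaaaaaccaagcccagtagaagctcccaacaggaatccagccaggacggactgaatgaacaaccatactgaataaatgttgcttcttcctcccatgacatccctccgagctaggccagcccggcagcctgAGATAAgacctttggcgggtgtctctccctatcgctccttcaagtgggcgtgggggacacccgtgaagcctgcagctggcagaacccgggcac
Icam4, chr9:21029182-21029481, plus strand: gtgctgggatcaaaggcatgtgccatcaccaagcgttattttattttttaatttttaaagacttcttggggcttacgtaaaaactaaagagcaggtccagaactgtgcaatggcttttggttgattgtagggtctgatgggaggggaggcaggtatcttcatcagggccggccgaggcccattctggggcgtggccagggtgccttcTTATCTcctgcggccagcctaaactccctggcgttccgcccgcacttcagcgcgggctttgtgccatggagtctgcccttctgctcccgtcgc
Ms4a2, chr19:11623670-11623969, minus strand: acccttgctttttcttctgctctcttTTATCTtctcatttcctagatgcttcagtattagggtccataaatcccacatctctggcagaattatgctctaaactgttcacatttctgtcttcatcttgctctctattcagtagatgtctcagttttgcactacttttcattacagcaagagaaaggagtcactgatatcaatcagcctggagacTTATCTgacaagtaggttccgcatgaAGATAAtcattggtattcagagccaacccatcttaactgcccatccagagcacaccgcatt
The match began 31 bases before the start in Prss34, 43 in Rhd and 43 in Icam4, and Ms4a2 held 3, at 224, 37 and 11 bases before it. Of the called higher genes with a window, 23 of 154 (14.9%) held at least 1 match, against 755 of 9244 measured genes (8.17%) and 12 of 132 called lower genes (9.09%). Among erythroid, heme and iron genes called higher it was 5 of 18. The KLF1 type of box CCNCNCCC was found in 116 of 154 called higher genes (75.3%) and in 71.6% of all, so most promoters held this GC-rich pattern. A match describes letters in a window and no binding was measured.

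The 6 of 19 stem and progenitor genes that fell stood against 1.38% of all genes called lower, and the list had a median difference of -1.69. This list too was chosen with earlier results of these data known. Cd34 (chr1:194938819-194961279), a surface sialomucin of progenitors, was at 7.91 and 7.31 under vehicle and 4.41 and 4.10 under both drugs, which is 10.2-fold lower (log2 difference -3.36 ± 0.27, adjusted p = 0.000470). Cd93, another receptor of early progenitors, went from 8.90 and 8.93 to 6.76 and 6.79 (-2.14 ± 0.22, adjusted p = 0.00156). Kit, whose protein was used in the sort, went from 6.31 and 6.59 to 4.51 and 4.26, a log2 difference of -2.06 ± 0.37 (adjusted p = 0.0148). The groups did not overlap for these 3 genes, as for every called gene. The transcription factor genes Erg, Sox4 and Etv6 fell by 1.79 ± 0.38, 1.90 ± 0.40 and 1.51 ± 0.30 (adjusted p = 0.0311, 0.0309 and 0.0228). Meis1, a partner of HOX proteins in leukemia, was lower in both AG120_AZA libraries (6.98 and 6.80 against 8.37 and 7.30) without passing (adjusted p = 0.137), and Mycn had a difference of -2.91 ± 0.88 (adjusted p = 0.0944). The calls of Cd34 and Cd93 held with each of the 8 libraries left out. Single omissions ended the calls of Erg, Sox4 and Etv6 without vehicle replicate 1 (adjusted p from 0.0917 to 0.141), Kit, Erg and Etv6 without vehicle replicate 2 (adjusted p from 0.0635 to 0.0745) and Erg and Sox4 without AG120_AZA replicate 1 (adjusted p from 0.0563 to 0.0627). Also lost were all others called here without AG120_AZA replicate 2 (adjusted p from 0.124 to 0.193). Meis1 passed without vehicle replicate 2 (adjusted p = 0.0419). The count of called members was 3 without vehicle replicate 1, 2 without AG120_AZA replicate 2 and 1 without the mean-variance trend.

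Of 18 monocyte genes, 5 fell and 1 rose (median -1.0). Irf8, the transcription factor of monocyte and dendritic cell fate, went from 5.99 and 7.23 to 4.30 and 4.07 (-2.42 ± 0.37, adjusted p = 0.00729). Csf1r, the receptor of macrophage colony-stimulating factor, differed between vehicle libraries (7.87 and 9.40) and was lower in both AG120_AZA libraries (6.75 and 6.84), a log2 difference of -1.84 ± 0.44 (adjusted p = 0.0480). F13a1, Ms4a6c and the lysosomal marker Cd68 had differences of -2.81 ± 0.60, -1.64 ± 0.31 and -1.40 ± 0.30 (adjusted p = 0.0322, 0.0210 and 0.0350). The member that rose was Lgals3 (galectin 3), at 2.91 and 3.16 in vehicle and 5.72 and 5.23 under both drugs (2.44 ± 0.41, adjusted p = 0.0116). Spi1, the gene of PU.1, was chosen for mention after its values were seen: it went from 8.48 and 8.91 to 7.53 and 7.03, a log2 difference of -1.41 ± 0.31 (adjusted p = 0.0347), while Gata1, the factor it opposes in normal blood formation, rose. The threshold was missed by Cd68, Lgals3 and Spi1 without vehicle replicate 1 (adjusted p from 0.0547 to 0.142), Csf1r, F13a1, Ms4a6c, Cd68 and Spi1 without vehicle replicate 2 (adjusted p from 0.0724 to 0.182) and Csf1r, F13a1 and Spi1 without either AZA library (adjusted p from 0.0546 to 0.0748). The same held for Csf1r, F13a1 and Cd68 without AG120_AZA replicate 1 (adjusted p from 0.0720 to 0.0889) and all genes called here without AG120_AZA replicate 2 (adjusted p from 0.0669 to 0.267). The count of monocyte members called lower was 2 without vehicle replicate 2 or AG120_AZA replicate 1, 3 without either AZA library, 0 without AG120_AZA replicate 2 or the trend, and 1 with only the compared libraries or with a mean of at least 5.

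Of 23 cytokine receptor genes, 4 fell and 1, Epor, rose (median -0.85). Csf1r is one of the 4. Il6ra (chr3:89864059-89913196), the interleukin 6 receptor gene, stood at 4.39 and 4.45 in vehicle and 0.72 and 0.85 under both drugs, or 12.4-fold lower (-3.64 ± 0.47, adjusted p = 0.00384). Il4ra, the interleukin 4 receptor gene, fell by 2.04 ± 0.35 (adjusted p = 0.0117) and Ifnar2, a chain of the type I interferon receptor, by 1.07 ± 0.22 (adjusted p = 0.0293). Both AG120_AZA libraries were below both vehicle libraries for Il6ra, Il4ra and Ifnar2, as for every gene called lower. Csf2rb2, a chain of the mouse interleukin 3 receptor, had a positive difference of 1.58 ± 0.42 that did not pass (adjusted p = 0.0678; with a robust prior it was 0.0499). The call of Il6ra held with each of the 8 libraries left out. With 1 library fewer, the test was not passed by Ifnar2 without vehicle replicate 1 or either AG120_AZA library (adjusted p from 0.0604 to 0.128) and Il4ra and Ifnar2 without vehicle replicate 2 (adjusted p from 0.0700 to 0.0959). Receptors called lower numbered 1 without vehicle replicate 2, 2 without AG120_AZA replicate 2 or with only the compared libraries, 1 without the trend, and 2 and 1 at means of at least 3 and 5.

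The call among neutrophil genes depended on single libraries. Primary granule genes were lower in 11 of 11 measured members by group mean (median -1.04) and none passed, with 7 at an unadjusted p below 0.05. Mpo (myeloperoxidase), the most abundant, stood at 12.38 and 13.37 in vehicle and 11.97 and 10.90 under both drugs (-1.44 ± 0.39, adjusted p = 0.0705). Of 26 neutrophil maturation genes 1 fell, Lcn2 (lipocalin 2), at 7.37 and 9.23 and 6.46 and 5.51 (-2.32 ± 0.50, adjusted p = 0.0347). The share of all genes called lower was 1.38%. Both AG120_AZA libraries were below both vehicle libraries for Mpo and Lcn2, as for 23.9% of all genes. The summed neutrophil level given above nevertheless placed vehicle replicate 1 beside AG120_AZA replicate 1. The called count was 5 without vehicle replicate 1, 3 without AG120_AZA replicate 1, 2 without either AG120 library or with a replicate block, and 0 without vehicle replicate 2, AG120_AZA replicate 2 or either AZA library. It was also 0 without the trend, with a robust prior or with a mean of at least 5. Calls that turned on 1 library were those of Lcn2 without vehicle replicate 2, either AZA library or AG120_AZA replicate 2 (adjusted p from 0.0581 to 0.279). Mpo passed without AG120_AZA replicate 1 (adjusted p = 0.0205).

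The promoters of Il6ra and Lcn2, which fell, are shown because they held the core letters of PU.1 sites, GAGGAA on the motif strand and TTCCTC on its complement, upstream of the start. Capitals mark these matches only, and the pair was chosen after the search.
Il6ra, chr3:89913147-89913446, minus strand: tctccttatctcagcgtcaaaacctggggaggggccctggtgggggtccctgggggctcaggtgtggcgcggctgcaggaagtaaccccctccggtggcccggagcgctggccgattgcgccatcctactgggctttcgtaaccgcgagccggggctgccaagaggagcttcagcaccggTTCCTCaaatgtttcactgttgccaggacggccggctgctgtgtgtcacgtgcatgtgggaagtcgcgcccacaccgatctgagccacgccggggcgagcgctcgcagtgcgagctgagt
Lcn2, chr2:32387690-32387989, minus strand: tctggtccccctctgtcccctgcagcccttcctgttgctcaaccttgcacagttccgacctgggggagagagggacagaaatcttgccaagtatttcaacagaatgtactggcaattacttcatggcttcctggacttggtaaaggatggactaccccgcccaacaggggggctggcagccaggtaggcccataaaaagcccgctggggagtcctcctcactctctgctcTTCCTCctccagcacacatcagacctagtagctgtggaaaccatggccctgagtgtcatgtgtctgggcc
They began 70 bases before the start in Il6ra and 20 in Lcn2. Of called lower genes with a window, 59 of 132 (44.7%) held the letters at least once, against 2848 of 9244 measured genes (30.8%) and 45 of 154 called higher genes (29.2%). Among erythroid, heme and iron genes called higher it was 7 of 18 (38.9%), also above the share of all genes. A gene can have more than 1 window, which raises its count of any match. Counted by window, the PU.1 letters were in 34.8% of 184 called lower windows and 27.1% of 11748 measured windows. The called lower genes include 9 Ugt1a symbols, described below as close to 1 measurement. The Rhd window printed above also holds ttcctc and the Il6ra window ttatct, both left in lower case.

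**Figure D4:**
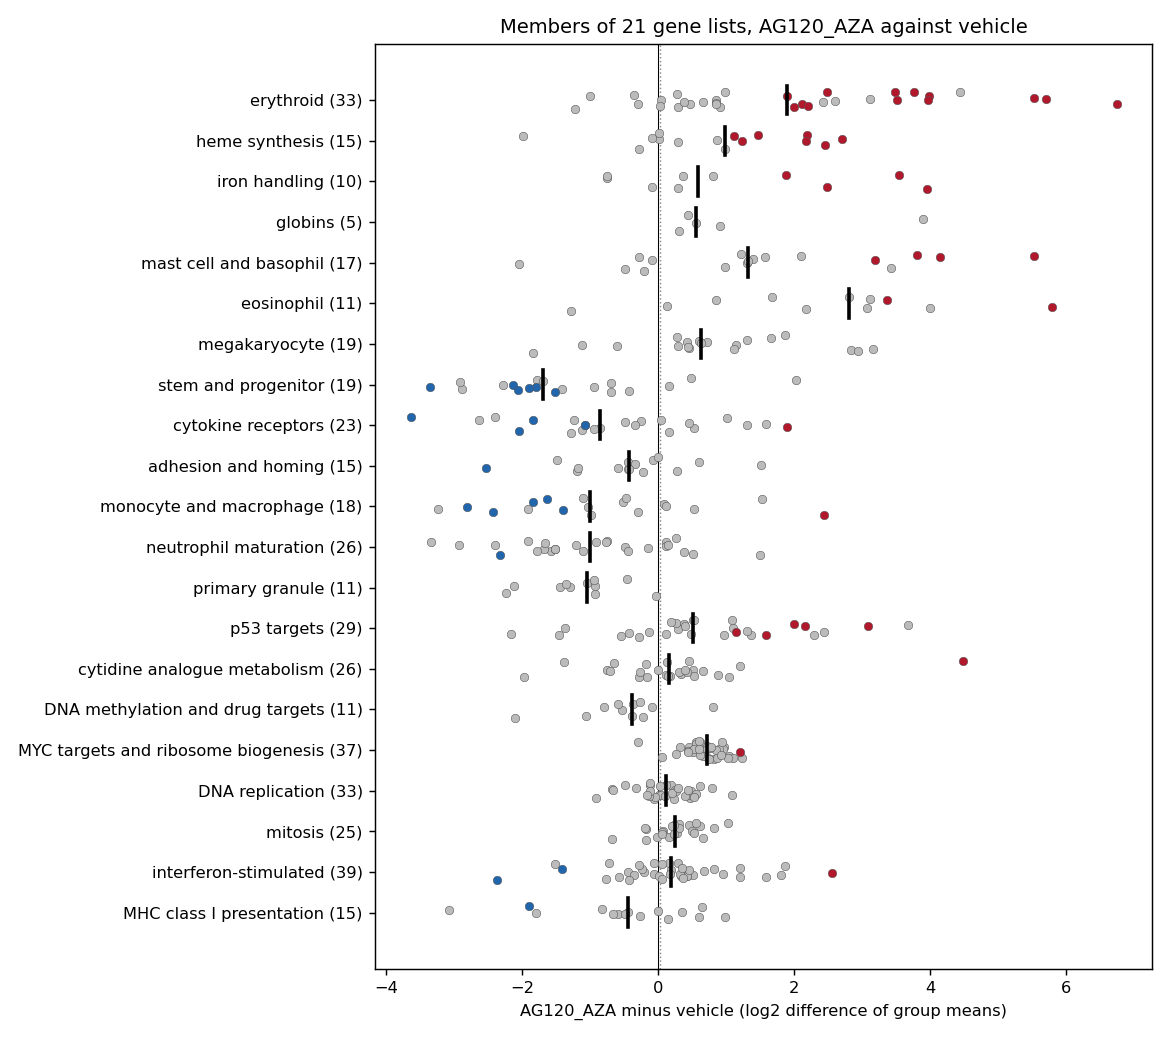
Each point is a measured member of a gene list, placed by its AG120_AZA minus vehicle log2 difference, with the number of members in parentheses, the median as a black bar, and the median of all genes as a dotted line. Red and blue points were called higher or lower; they gather in the erythroid, heme and iron lists on the right and the stem, receptor and monocyte lists on the left.

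Megakaryocyte genes, of the lineage nearest to red cells, had 0 of 19 called, with median 0.63 and 7 at an unadjusted p below 0.05. For all genes the share at that unadjusted limma p was 21.4%. Pf4 (platelet factor 4) stood at 10.42 and 10.96 in vehicle, 9.42 and 7.15 under AG120 and 11.49 and 11.33 under both drugs (0.72 ± 0.53, adjusted p = 0.466). Itgb3, the beta 3 integrin gene, lay at 6.64 and 7.11 in vehicle and 8.34 and 8.02 under both (1.31 ± 0.39, adjusted p = 0.0945). Itgb3 passed without either AG120 library (adjusted p from 0.0435 to 0.0461). With only the libraries compared it passed as well (adjusted p = 0.0385).

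Among genes that handle cytidine analogues, 1 of 26 was called, near the 3.02% of all genes called in either direction. Cda (chr4:138338424-138367992), the deaminase that inactivates azacitidine, stood at 2.03 and 1.27 in vehicle, 4.83 and 3.35 under AG120, 0.98 and 3.07 under AZA and 5.92 and 6.33 under both drugs. Its rise over vehicle was 4.48 ± 0.68, or 22.3-fold (adjusted p = 0.00685). Both AG120_AZA libraries were above every library of the other 3 groups. The difference between AG120_AZA and AG120 was 2.04 ± 0.68 and did not pass (adjusted p = 0.384), whereas AG120_AZA against AZA did (adjusted p = 0.0131). Uck2 and Uck1, the kinases that activate azacitidine, had differences from vehicle of 0.43 ± 0.23 and 0.65 ± 0.34 (adjusted p = 0.320 and 0.300), and the nucleoside transporter gene Slc29a1 one of 0.52 ± 0.28 (adjusted p = 0.305). Calls were lost for Cda without AG120_AZA replicate 2 (adjusted p = 0.0841).

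Among the 11 drug targets and DNA methylation genes none was called, with 10 of 11 differences negative (median -0.39) and 2 at an unadjusted p below 0.05. For all genes the share at that unadjusted limma p was 21.4%. Dnmt3a, a de novo methyltransferase, stood at 6.81 and 6.26 in vehicle and 5.48 and 5.47 under both drugs (-1.07 ± 0.26, adjusted p = 0.0541), and Idh2 at 9.31 and 9.24 and 8.50 and 8.47 (-0.79 ± 0.19, adjusted p = 0.0542). The groups did not overlap for either gene, a separation that 23.9% of all genes showed in the lower direction. Idh1, whose mutant product AG120 inhibits, stood at 7.58 and 8.32 in vehicle and 8.53 and 6.94 under both drugs (-0.22 ± 0.42). Mutant and wild-type transcripts are not separated in these values. Dnmt1, the maintenance enzyme that AZA traps, differed by -0.39 ± 0.21, Dnmt3b by -0.53 ± 0.40, Uhrf1 by -0.26 ± 0.20, Tet1 by -2.10 ± 1.24, Tet2 by -0.37 ± 0.52, Tet3 by -0.59 ± 0.37 and D2hgdh by -0.09 ± 0.40. With a robust prior both Dnmt3a and Idh2 passed (adjusted p = 0.0400 and 0.0387), as they did with 1 CPM added before the log (adjusted p = 0.0447 and 0.0461). Idh2 passed without either AZA library (adjusted p from 0.0463 to 0.0486).

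p53 target genes had 5 of 29 members higher and none lower (median 0.51), beside 1.63% of all genes called higher. Ccng1 (cyclin G1) was the most strongly expressed of them, at 6.14 and 6.11 in vehicle and 7.80 and 7.62 under both drugs (1.59 ± 0.27, adjusted p = 0.0119). Phlda3, an inhibitor of AKT signalling, rose by 3.08 ± 0.59 (adjusted p = 0.0210), the exonuclease gene Aen by 1.14 ± 0.26 (adjusted p = 0.0429), the stress cytokine gene Gdf15 by 2.0 ± 0.44 (adjusted p = 0.0376) and Psrc1, a spindle protein gene, by 2.16 ± 0.44 (adjusted p = 0.0265). The best known targets did not pass. Cdkn1a, encoding the cell cycle inhibitor p21, lay at 5.78 and 4.20 in vehicle and 6.07 and 6.64 under both (1.36 ± 0.51, adjusted p = 0.162), and Mdm2 differed by 0.29 ± 0.24 (adjusted p = 0.534). Of 12 measured BCL2 family genes none was called and 1 (Bcl2, -0.91 ± 0.30, adjusted p = 0.115) had an unadjusted p below 0.05, beside 21.4% of all genes. Single omissions ended the calls of Phlda3, Aen and Psrc1 without vehicle replicate 1 (adjusted p from 0.0726 to 0.151), Ccng1, Aen, Gdf15 and Psrc1 without vehicle replicate 2 (adjusted p from 0.0502 to 0.142) and Aen and Gdf15 without either AG120 library or either AZA library (adjusted p from 0.0513 to 0.0604). Further losses were Gdf15 and Psrc1 without AG120_AZA replicate 1 (adjusted p from 0.0607 to 0.0709) and all genes called here without AG120_AZA replicate 2 (adjusted p from 0.0792 to 0.302). The count of p53 targets was 2 and 1 without vehicle replicates 1 and 2, 3 without either AG120 library, 0 without AG120_AZA replicate 2 or the trend, and 1 among genes with a mean of at least 5.

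Cell division genes were called in small numbers, beside 3.02% of all genes called in either direction. None of 33 DNA replication genes (median 0.12) and none of 25 mitosis genes (median 0.24) was called, with 5 and 5 at an unadjusted p below 0.05. An unadjusted limma p below 0.05 was reached by 21.4% of all genes. Mki67, the proliferation marker gene, stood at 8.52 and 8.07 in vehicle and 8.67 and 8.92 under both drugs. Of 24 cell cycle control genes 2 were called, both cyclins of the G1 phase. Ccnd1 (cyclin D1) went from 5.23 and 5.0 to 2.87 and 1.27 (-3.05 ± 0.49, adjusted p = 0.00804), and Ccne1 (cyclin E1) from 4.59 and 4.83 to 5.84 and 5.89 (1.16 ± 0.27, adjusted p = 0.0447). Targets of MYC and genes of ribosome biogenesis were positive in 36 of 37 members (median 0.72), and 28 had an unadjusted p below 0.05. Of these 1 was called, the chaperonin gene Hspd1 (1.21 ± 0.24, adjusted p = 0.0228), and the gene Myc itself lay at 4.71 and 4.68 in vehicle and 4.27 and 2.03 under both (-1.55 ± 0.69, adjusted p = 0.223). Positive differences were found for 6292 of all 12294 genes. The median of the MYC target list was 0.49 for AG120 alone against vehicle and 0.15 for both drugs against AG120. Aminoacyl-tRNA synthetase genes were positive in 18 of 19 members (median 0.53) with none called and 9 at an unadjusted p below 0.05. The threshold was missed by Ccne1 and Hspd1 without vehicle replicate 1 (adjusted p from 0.115 to 0.150), Ccne1 without vehicle replicate 2, either AG120 library or AG120_AZA replicate 1 (adjusted p from 0.0700 to 0.0881) and Ccnd1, Ccne1 and Hspd1 without AG120_AZA replicate 2 (adjusted p from 0.0528 to 0.237). Myc passed without AG120_AZA replicate 1 (adjusted p = 0.0388).

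Metabolic and stress genes included several single large changes. The counts of called members below stand beside 3.02% of all genes called in either direction. Mt2, a metallothionein that binds zinc and copper, went from 4.25 and 5.54 to 8.51 and 9.05 (3.88 ± 0.41, adjusted p = 0.00156), and its neighbour Mt1 from 8.55 and 9.30 to 9.62 and 10.29, which did not pass (1.03 ± 0.28, adjusted p = 0.0756). Gclm, the regulatory subunit of the first enzyme of glutathione synthesis, rose by 1.77 ± 0.23 (adjusted p = 0.00393) and the quinone reductase gene Nqo1 by 1.87 ± 0.36 (adjusted p = 0.0222), and these were the called members among 20 antioxidant genes. Pkm, the pyruvate kinase of most proliferating cells and among the most abundant called genes, fell from 10.26 and 10.42 to 9.19 and 8.95 (-1.27 ± 0.24, adjusted p = 0.0213). The glucose transporter gene Slc2a3 rose by 1.39 ± 0.32 (adjusted p = 0.0447). In the nuclear lamina, Lmna, the gene of lamins A and C, which are low in most blood progenitors, rose from 2.97 and 2.62 to 6.72 and 6.50, or 14.1-fold (3.82 ± 0.48, adjusted p = 0.00380), and Sun2, which ties the lamina to the cytoskeleton, fell by 1.67 ± 0.39 (adjusted p = 0.0470). Kdm5b, a histone H3 lysine 4 demethylase gene, was the called member of 20 polycomb and trithorax genes, at 6.25 and 5.90 and 7.74 and 8.12 (1.86 ± 0.27, adjusted p = 0.00564). The calls of Mt2, Gclm and Lmna held with each of the 8 libraries left out. With 1 library fewer, the test was not passed by Pkm, Slc2a3 and Sun2 without vehicle replicate 1 (adjusted p from 0.0510 to 0.135), Nqo1, Pkm, Slc2a3 and Sun2 without vehicle replicate 2 (adjusted p from 0.0862 to 0.200) and Slc2a3 and Sun2 without either AZA library (adjusted p from 0.0581 to 0.0654). Also lost were Slc2a3 without AG120_AZA replicate 1 (adjusted p = 0.104) and all others called here without AG120_AZA replicate 2 (adjusted p from 0.0729 to 0.341). Mt1 passed without vehicle replicate 2 or AG120_AZA replicate 1 (adjusted p from 0.0332 to 0.0476).

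Immune genes were called in small numbers, beside 1.63% of all genes called higher and 1.38% lower. Of 39 interferon-stimulated genes 1 rose and 2 fell (median 0.19): Oasl1 went from 0.72 and 0.72 to 3.03 and 3.52 (2.56 ± 0.50, adjusted p = 0.0227), the transcription factor gene Irf1 from 7.66 and 7.83 to 6.34 and 6.31 (-1.42 ± 0.21, adjusted p = 0.00607) and Ifi203 from 5.70 and 4.82 to 3.12 and 2.67 (-2.37 ± 0.42, adjusted p = 0.0141). Under AZA alone Oasl1 stood at 3.58 and 3.58. Among 15 genes of MHC class I presentation 1 fell, H2-Q7 (-1.90 ± 0.43, adjusted p = 0.0396), and reads of the similar H2 genes can be shared. The differences of this list were negative in 10 of 15 members and positive in 5 (median -0.44). An unadjusted limma p below 0.05 was reached by 8 of the 15, against 21.4% of all genes. Calls that turned on 1 library were those of Oasl1, Ifi203 and H2-Q7 without vehicle replicate 1 (adjusted p from 0.0584 to 0.0947), Oasl1 and H2-Q7 without vehicle replicate 2 (adjusted p from 0.0569 to 0.139) and H2-Q7 without either AZA library or AG120_AZA replicate 1 (adjusted p from 0.0647 to 0.0932). The same held for all genes called here without AG120_AZA replicate 2 (adjusted p from 0.0580 to 0.199).

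Other genes among the 15 highest and 15 lowest differences span functions. On the higher side were the carboxylesterase gene Ces2g (-0.62 and 2.09 in vehicle and 5.68 and 5.08 under both drugs), Atp1b2, a sodium pump subunit (4.5 ± 0.67), Samd14 (4.38 ± 0.66), the biliverdin reductase gene Blvrb, which acts in heme breakdown (3.76 ± 0.45), Parm1 (3.74 ± 0.53), the phospholipid transporter gene Abcb4 (3.70 ± 0.40) and Samd15 (3.64 ± 0.72). Adjusted p-values of these 7 lay between 0.00198 and 0.0243. Blvrb is also a member of the erythroid list and is counted among its called genes above. On the lower side were Pou2f2, the OCT2 transcription factor gene of B cells (-3.23 ± 0.41), Unc93b1, which carries Toll-like receptors to endosomes (-3.14 ± 0.38), the chemokine gene Ccl5 (-3.02 ± 0.43), Thsd1 (-3.10 ± 0.49), Kcnk12, a potassium channel gene (-3.09 ± 0.60), Tifab (-2.89 ± 0.45), Rbpms (-2.76 ± 0.44), Cyth1 (-2.73 ± 0.64) and Tgfbi (-2.68 ± 0.41), with adjusted p between 0.00313 and 0.0453. The Ugt1a cluster of glucuronosyltransferase genes also fell, by 3.31 ± 0.46 for Ugt1a1 (adjusted p = 0.00467). Its 9 measured symbols share their last exons and nearly all their reads, so they are close to 1 measurement. The calls of Blvrb, Abcb4, Pou2f2, Unc93b1, Ccl5, Rbpms and Tgfbi held with each of the 8 libraries left out. Calls were lost for Ces2g, Samd15, Kcnk12 and Cyth1 without vehicle replicate 1 (adjusted p from 0.0611 to 0.138), Kcnk12, Tifab and Cyth1 without vehicle replicate 2 (adjusted p from 0.0509 to 0.127) and Cyth1 without either AG120 library (adjusted p from 0.0603 to 0.0618). Further losses were Samd15 without AG120_AZA replicate 1 (adjusted p = 0.0568) and all others called here without AG120_AZA replicate 2 (adjusted p from 0.0508 to 0.285).

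The most abundant called genes changed by smaller amounts. Prps1, which makes the ribose precursor of nucleotides, went from 9.75 and 9.88 to 10.51 and 10.94 (0.91 ± 0.21, adjusted p = 0.0431), and Metap2, a methionine aminopeptidase gene, from 8.25 and 8.30 to 8.97 and 9.20 (0.81 ± 0.18, adjusted p = 0.0386). Limd2 fell by 1.61 ± 0.25 (adjusted p = 0.00783), Gm2a, a lysosomal activator of ganglioside breakdown, by 1.0 ± 0.19 (adjusted p = 0.0210), and Phf12 by 0.90 ± 0.21 (adjusted p = 0.0448). Dhrs13os, at almost the same values as Phf12, is an antisense gene, and the 2 cannot be told apart without strand. Single omissions ended the calls of Prps1, Metap2, Gm2a and Phf12 without vehicle replicate 1 (adjusted p from 0.101 to 0.164), Prps1, Metap2 and Phf12 without vehicle replicate 2 or either AG120 library (adjusted p from 0.0593 to 0.111) and Prps1 without either AZA library (adjusted p from 0.0527 to 0.0550). Also lost were Phf12 without AG120_AZA replicate 1 (adjusted p = 0.0592) and all genes called here without AG120_AZA replicate 2 (adjusted p from 0.0950 to 0.304).

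Each change under both drugs can be set beside the single drugs. Against AG120 alone, none of 12294 genes was called by limma, while 1237 (10.1%) had an unadjusted p below 0.05, and the count was also 0 without the mean-variance trend and with vooma weights. It was 213 without AG120_AZA replicate 1, which leaves the outlying replicate 2 as the only library of its group, and 7 without AG120 replicate 1. Against AZA alone 278 genes (2.26%) were called, 130 higher (1.06%) and 148 lower (1.2%). At an unadjusted p below 0.05 it was 19.6% of genes. That count was 594 and 30 without AG120_AZA replicates 1 and 2, 14 without AZA replicate 1, 157 without AZA replicate 2, 9 without the trend and 67 at a mean of at least 5. Cd34 had the smallest adjusted p against AG120 among the 15 lowest genes: it stood at 6.0 and 6.11 in the AG120 libraries, 7.72 and 7.28 in the AZA libraries and 4.41 and 4.10 under both drugs, with a difference of -1.80 ± 0.27 from AG120 (adjusted p = 0.183). Mcpt8 stood at 6.66 and 6.13 under AG120 and 6.61 and 6.17 under both drugs, a difference smaller than its standard error of 0.33. AG120 minus vehicle was 3.56 ± 0.36 for Klf1, 4.68 ± 0.61 for Rhd, 4.71 ± 0.55 for Prss34 and 3.89 ± 0.34 for Ms4a2. All of these passed by limma (adjusted p from 0.00109 to 0.00836). Cda and Lmna did not, at 2.44 ± 0.68 and 2.07 ± 0.48 (adjusted p = 0.151 and 0.0933). Lmna stood at 5.54 and 4.20, 3.36 and 4.61 and 6.72 and 6.50 under AG120, AZA and both, and differed from AG120 by 1.74 ± 0.48 (adjusted p = 0.384). A p that misses the threshold does not show that both drugs and AG120 alone act alike.

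**Figure D5:**
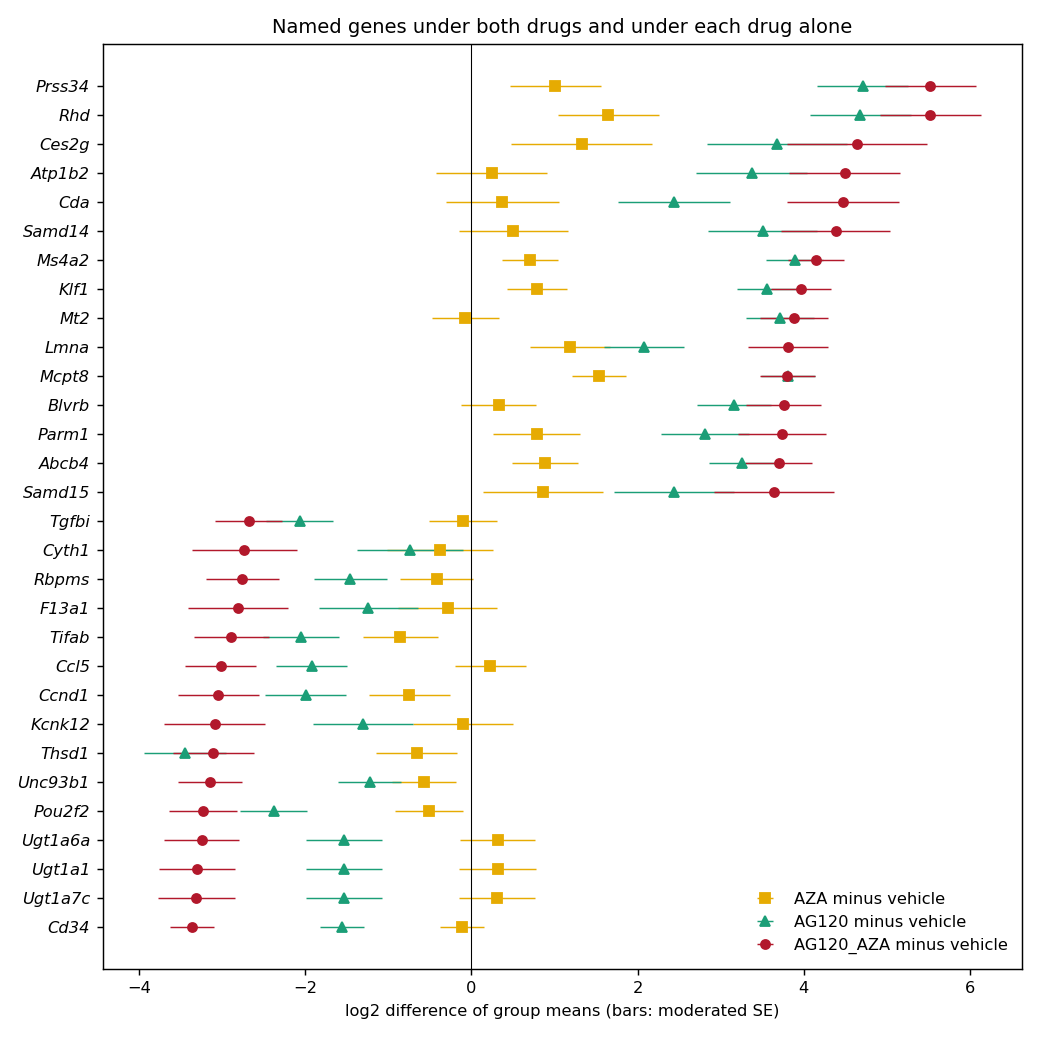
Points give log2 differences from vehicle, with moderated standard errors, for the 15 highest and 15 lowest named genes under both drugs (red circles), AG120 alone (green triangles) and AZA alone (yellow squares). The 3 comparisons share the 2 vehicle libraries. Most of the genes shown, among them Cda, Lmna and Cd34, have their AG120 value between those of vehicle and both drugs. Mcpt8 has nearly the same value under AG120 and both.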

How the data were processed

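RNA from 8 libraries was sequenced with a 3′ QuantSeq kit, per the labels' protocols. Per the submitters' processing notes, the authors used bcl2fastq 2.17.1.14, cutadapt 1.14, HISAT2 2.1.0, Subread 1.6.3 with featureCounts, R 3.6.2, limma 3.42.2 and edgeR 3.28.1 with the mm10 build. The deposited values are log2 CPM per gene for 12294 genes. Every library has the same maximum, 13.37, and nearly the same total, so the deposited libraries share one scale. Depth per library cannot be read from them, and no counting interval is given. The sources used here do not say whether counting used strand.

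Group means were fitted with limma 3.58.1 in R 4.3.3 (4 groups, all 8 libraries, mean-variance trend, two-sided, Benjamini-Hochberg over 12294 genes, called at 0.05), on the log2 values with no pseudocount and no filter. Differences are given with their moderated standard error. With 2 libraries a group, per-library values stand in place of an SD. The fit was tested on simulated data. Named genes were the 15 highest and 15 lowest called differences with a mean of at least 3 log2 CPM and no overlap, the 10 most abundant called genes, up to 6 members of each list by smallest p, the defining markers, and all drug targets. All other genes were named after their values were seen, and some that the rule names are not reported here. Members and the 40 gene lists were chosen with earlier results of these data known. Alternatives were no trend, vooma weights, a robust prior, only the groups compared, minimum means of 3 and 5, 1 CPM added, median centring, a replicate block and each library left out. Gene spans come from GENCODE M21 (12064 of 12294 symbols matched) and promoters from RefSeq on GRCm38.p6 (9244 matched).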

Additional observations from a re-analysis of the deposited data

How the results depend on the processing

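Of 94 named genes called, none changed direction under any alternative, but most alternatives could not turn a sign. No called gene overlapped between vehicle and AG120_AZA, so leaving out 1 library could not do so. The variance settings and the minimum means left the differences themselves unchanged. With all 8 libraries, 201 genes were called higher and 170 lower under both drugs against vehicle, 0 against AG120 and 278 against AZA. Without the mean-variance trend these were 32, 11, 0 and 9. With a mean of at least 3 log2 CPM they were 132, 140, 0 and 205, and with a mean of at least 5 they were 35, 47, 0 and 67. With only the libraries of the groups compared they were 122, 78, 0 and 297. With 1 CPM added before the log they were 283, 219, 0 and 427. Leaving out 1 library at a time gave from 18 to 215 higher, from 19 to 537 lower, from 0 to 213 against AG120 and from 14 to 594 against AZA. Vooma weights gave 145, 145, 0 and 236, a robust prior 252, 209, 0 and 339, and median-centred libraries 201, 171, 0 and 279.

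The replicate numbers pair nothing that the labels name. A replicate block gave 183 higher, 187 lower, 0 against AG120 and 213 against AZA, and 89 of the 94 named genes kept their call. The 5 that missed the threshold with the block were Metap2, Abcg2, Cish, Prps1 and Sun2 (adjusted p = 0.0507, 0.0528, 0.0534, 0.0585 and 0.0642). The deviations of same-numbered vehicle and AG120_AZA libraries from their group means correlated at -0.11, so a crossed replicate block, chosen after seeing the data, was fitted too and gave 215, 217, 0 and 365.

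Among named genes that were not called, the sign turned for 8 when a library was left out, with none passing. Over the 8 omissions the log2 difference ran from -1.27 to 0.97 for Itgam, from -1.13 to 0.41 for Slc4a1 and from -0.74 to 0.76 for Alas2. It ran from -1.24 to 0.69 for Gata2, from -1.01 to 0.58 for Idh1, from -0.77 to 0.033 for Tet2, from -0.68 to 0.50 for D2hgdh and from -0.021 to 0.59 for Mdm2. The libraries that turned a sign were vehicle replicate 2 (Itgam, Slc4a1, Alas2, Idh1 and Mdm2), AG120_AZA replicate 2 (Itgam, Alas2, Gata2, Idh1 and Tet2), vehicle replicate 1 (Gata2 and D2hgdh) and AG120_AZA replicate 1 (Slc4a1). The cause of these changes was not tested. Genes at a library's lowest value, and all folds of rare transcripts, are limited by a depth that is unknown.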

Other observations

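Several called genes outside the lists above, chosen after their values were seen, belong to processes not yet described. Pklr, the pyruvate kinase gene used by red cells and liver, had log2 CPM levels of -0.91 and 0.98 under vehicle, 4.88 and 3.67 under AG120, -1.57 and 1.73 under AZA and 5.06 and 5.51 under both drugs (5.25 ± 0.98, limma adjusted p = 0.0185), while the other pyruvate kinase gene, Pkm, fell. Among single genes that fell, Stat3, which acts below the interleukin 6 receptor, went from 8.74 and 8.54 to 7.75 and 7.04 (-1.24 ± 0.27, adjusted p = 0.0368), the transcription factor gene Mef2c from 5.64 and 5.22 to 4.13 and 3.94 (-1.39 ± 0.30, adjusted p = 0.0322) and the adaptor gene Tyrobp from 8.80 and 9.05 to 8.01 and 7.75 (-1.05 ± 0.22, adjusted p = 0.0297). Sting1, the adaptor of cytosolic DNA sensing, went from 6.99 and 6.83 to 5.23 and 5.01 (-1.79 ± 0.28, adjusted p = 0.00783). For each of these 5 genes both AG120_AZA libraries lay on one side of both vehicle libraries, as for every called gene. The threshold was missed by Pklr, Stat3, Mef2c and Tyrobp without vehicle replicate 1 (adjusted p from 0.0665 to 0.139), Stat3, Mef2c and Tyrobp without vehicle replicate 2 (adjusted p from 0.0535 to 0.128) and Stat3 without either AG120 library (adjusted p from 0.0536 to 0.0551). The same held for all genes called here without AG120_AZA replicate 2 (adjusted p from 0.0853 to 0.284).

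Cish, a feedback inhibitor of cytokine signalling that STAT5 induces, was the called member among 13 genes of RAS and cytokine signalling feedback, at 2.49 and 1.59 in vehicle and 3.83 and 4.68 under both drugs (2.22 ± 0.51, adjusted p = 0.0428). Calls in either direction covered 3.02% of all genes. Abcg2, a drug and porphyrin exporter, stood at 1.86 and 1.5 in vehicle, 2.58 and 2.57 under AG120, 3.03 and 3.90 under AZA and 3.54 and 3.96 under both (2.07 ± 0.47, adjusted p = 0.0421), and was higher in every treated library than in either vehicle library. With 1 library fewer, the test was not passed by Cish and Abcg2 without either vehicle library, either AG120 library or AG120_AZA replicate 2 (adjusted p from 0.0504 to 0.321), Cish without either AZA library (adjusted p from 0.0581 to 0.0588) and Abcg2 without AG120_AZA replicate 1 (adjusted p = 0.0531). Of 15 adhesion and homing genes (median -0.43) 1 was called lower by limma, beside 1.38% of all genes. None of 19 ATF4 targets (median 0.59), 19 cholesterol synthesis genes (median 0.06), 15 immediate early genes (median 0.01), 11 dendritic cell and MHC class II genes (median 0.26), 11 mitochondrially encoded genes (median 0.32) or 10 germline and imprinted genes (median 0.02) was called by limma. In turn, 10, 3, 5, 1, 3 and 2 had an unadjusted p below 0.05, beside 21.4% of all genes.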
